A study of Arabidopsis thaliana with 12 samples.

Results

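The response to dexamethasone (Dex) that is common to both inhibitor backgrounds was measured on 12 ATH1 arrays of *Arabidopsis thaliana* shoot apical meristems (SAMs), 6 with Dex and 6 without. It is the main effect of Dex in a model with cycloheximide (Cyc) as a second factor, so each locus has 1 pooled log2 change that averages the contrast with and without the inhibitor. These 12 arrays are all arrays of the series. Every group carried *35S::WUS-GR* in *ap1-1;cal1-1* double mutants about 28 days old. Apices received mock solution, 10 μM Dex, 10 μM Cyc, or both agents together (Dex+Cyc) for 4 h, with 3 arrays per group. RNA came from the SAMs of 30 to 35 plants per treatment. The *35S* promoter drives the WUS-GR fusion in nearly all cells, so the response is not limited to the cells where *WUS* is normally made. Dex-treated plants without the transgene were not analysed here, and an effect of Dex itself cannot be told apart from that of WUS. The labels number the arrays of a group without naming separate cultures, so the p-values reflect only how these samples varied, and that variation may be technical.

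WUSCHEL (WUS) is a homeodomain transcription factor made in the organizing center of the SAM. It moves to the overlying stem cells and activates *CLV3*, whose secreted peptide acts through receptor kinases to limit *WUS*. In a GR fusion the hormone-binding domain of the glucocorticoid receptor holds the protein in the cytoplasm until Dex is added. Cyc blocks protein synthesis, so transcripts that still respond when it is present do not need a newly made intermediate protein. Cyc alone also changes the level of many transcripts, and for this reason the model holds a term for it.

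Signals are the authors' MAS5 intensities, not log-transformed, and every array had been brought to a trimmed mean of 500. Array medians ranged from 214 to 236, and log2 signals of arrays of 1 group correlated at 0.955 to 0.984 across probe sets. With 1 probe set per locus, and each probe set without a known locus counted as 1 locus, there were 22595 loci. Of these, 14067 had a mean over the 12 arrays of 100 or more and were tested with limma. A locus ID was known for 8406 of the 14067. The dimmest locus kept had a mean of 100 and the brightest one left out a mean of 99.95. Of 9 listed meristem markers 3 were among the tested loci, which needed a matched probe set and had to pass the filter. *WUS* had no matched probe set, so a marker left untested was not necessarily dim. *KNAT1* averaged 2860.2 in mock, *UFO* 479 and *CLV3* 85.9. Of 6 floral organ markers 2 were tested, *PI* at 1018 and *SEP1* at 664 in mock. Of 18 green-tissue markers 2 were tested, the light-harvesting genes *LHCB4.1* at 3055 and *LHCB4.2* at 658. Because RNA is from whole apices, fewer cells of a type and less RNA per cell cannot be told apart.

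A locus was called when its adjusted p (Benjamini-Hochberg over all tested loci) was under 0.01 and its pooled change was at least 2-fold. Dex raised 110 loci by this rule, 0.782% of those tested, and lowered 197, 1.40%. Both directions kept their sign in each background at every called locus, 110 of 110 and 197 of 197. The 3 arrays with Dex lay wholly above the 3 without in both backgrounds at 102 of the raised loci (92.7%), and wholly below at 179 of the lowered loci (90.9%). Over all tested loci such separation occurred at 6.30% upward and 5.81% downward. The counts of sign and these shares use the same arrays as the calls and are given as a description. A locus with opposite signs has a smaller pooled change and a larger error, so the call itself favours agreement of sign. The median log2 change of raised loci was 1.26 pooled, 1.46 without Cyc and 1.08 with it, and that of lowered loci was -1.23, -1.38 and -1.14. The change was at least 2-fold in each background separately at 62 raised and 105 lowered loci. It was larger without Cyc at 86 of 110 raised and 129 of 197 lowered loci.

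**Figure D1:**
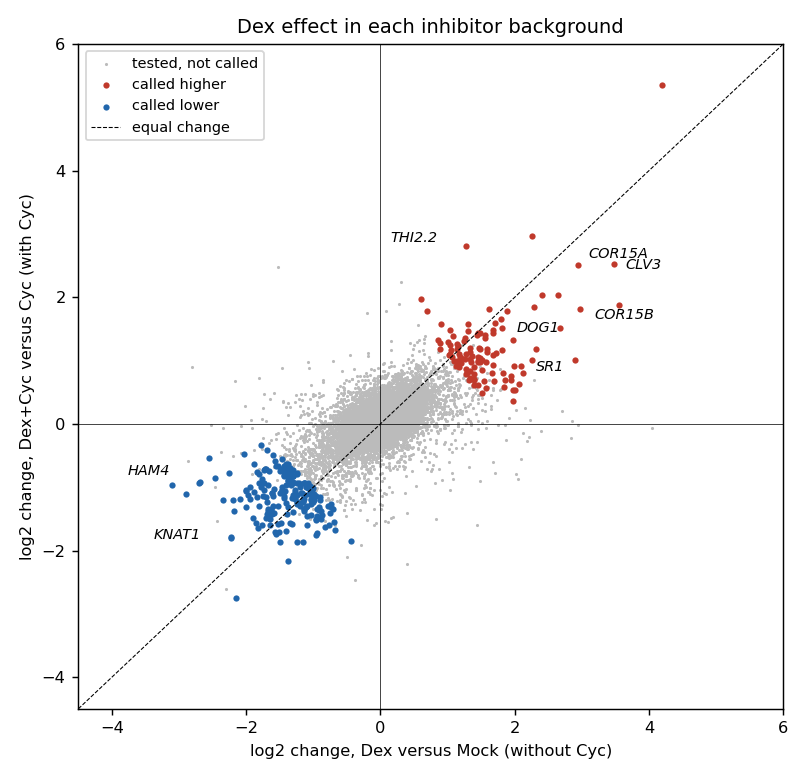
Log2 change of Dex versus Mock (x axis) against that of Dex+Cyc versus Cyc (y axis) for the 14067 tested loci, with called loci in red (110 higher) and blue (197 lower). All called loci lie in the 2 quadrants of equal sign, which the pooled call itself favours. The change was larger without Cyc at 86 raised and 129 lowered loci.

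Names were available for only some of these loci. Of the 307 called, 150 had a gene symbol, and for 129 the locus was known only from the study's own supplementary lists of changed genes. Named genes therefore over-represent loci that had already been selected as changed, and counts within gene lists are given below for members whose locus was known independently of those lists. The filter acts on the mean of all arrays. A called locus could pass it through the groups where it was high, and 23 raised loci averaged under 100 without Dex while 31 lowered loci averaged under 100 with Dex.

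Pooling narrowed the error at most loci, which the larger number of arrays brings about by design. At called loci the median pooled standard error was 0.176. The error was wider where the backgrounds differed, as at *HAM4* (0.27 pooled and 0.14 in each background) and *LBD37* (0.25 and 0.14). The median standard error of the log2 change was 0.108 for the pooled effect and 0.147 for either background in a fit of the 4 group means, and the median ratio was 0.705. Fitted on its own 6 arrays, each pair gave a median standard error of 0.141. At an adjusted p under 0.01 with any fold, the pooled effect called 600 loci higher (4.27%) and 655 lower (4.66%), 1255 in all. The same threshold gave 917 for Dex versus Mock and 283 for Dex+Cyc versus Cyc. Of the pooled calls at any fold, 290 raised and 213 lowered loci passed that threshold in neither background alone. Most were small changes: 490 of the 600 raised and 458 of the 655 lowered loci were under 2-fold.

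The order turned round once a 2-fold change was required. Dex versus Mock then called 437 loci (3.11%) and Dex+Cyc versus Cyc 161 (1.14%), against 307 for the pooled effect. Of the loci called in Dex versus Mock, 77 raised and 128 lowered were not called in the pooled effect, with median log2 changes of 1.19 and -1.14 without Cyc and 0.38 and -0.48 with it. Of these, 38 raised and 86 lowered loci still had a pooled adjusted p under 0.01 and missed only the fold. Of the 110 raised loci, 37 passed in both backgrounds alone, 55 only without Cyc, 5 only with Cyc and 13 in neither. Of the 197 lowered loci the numbers were 56, 84, 22 and 35. Calls were more frequent among dim loci. With the tested loci split into 5 equal bins by mean signal, 3.2% were called in the dimmest bin and 1.71% in the brightest.

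The largest increase belonged to a probe set without an annotation here, 257890_s_at, chosen after its values were seen. Its name marks probes that can bind transcripts of more than 1 gene. Its signals were 38.8, 34.2 and 5.62 in mock, 318, 373 and 381 in Dex, 2.9, 1.42 and 8.17 in Cyc and 135, 132 and 132 in Dex+Cyc. All 6 arrays with Dex were above 130 and all 6 without were below 40, and the pooled log2 change was 4.78 ± 0.49 (SE; adjusted p = 5.6e-05). Several of the low signals are near the bottom of the array's range, and with 32 added before the log the change was 2.49.

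*CLV3*, the stem cell peptide gene that WUS is known to activate, had the largest increase of all loci with a symbol. *CLV3* signals were 53.1, 126 and 78.4 in mock, 738, 1043 and 954 in Dex, 51.1, 134 and 119 in Cyc and 572, 443 and 623 in Dex+Cyc. Every array with Dex was above every array without, in both backgrounds. The pooled log2 change was 3.01 ± 0.28 (SE; adjusted p = 3e-05), an 8.04-fold increase, and the values were 3.48 ± 0.36 without Cyc and 2.53 ± 0.36 with Cyc. The difference between backgrounds was -0.95 ± 0.51 (SE; adjusted p = 0.553), which did not pass the test.

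The next genes by size belong to the cold and dehydration response. *COR15A* and its neighbour *COR15B* encode small hydrophilic proteins of the chloroplast that protect membranes during freezing, and *RD29A* is a widely used marker of cold, drought and abscisic acid. *COR15A* signals were 134, 61.6 and 123 in mock, 848, 627 and 863 in Dex, 28.5, 30.6 and 32.9 in Cyc and 157, 126 and 267 in Dex+Cyc. The Dex arrays did not overlap with their controls in either background, although Cyc alone stood lowest and the Dex+Cyc arrays overlapped with mock. Its pooled log2 change was 2.72 ± 0.22 (SE; adjusted p = 1.2e-05). *COR15B* signals were 194, 163 and 147 in mock, 1222, 1039 and 1781 in Dex, 85.2, 108 and 88.4 in Cyc and 272, 321 and 413 in Dex+Cyc, a change of 2.4 ± 0.22 (SE; adjusted p = 2.52e-05). Its arrays separated in both backgrounds, as the choice of the largest changes required. *RD29A* signals were 257, 516 and 385 in mock, 1929.5, 1371 and 2239 in Dex, 139.8, 314 and 199.6 in Cyc and 486, 793 and 1071 in Dex+Cyc, and its change was 2.07 ± 0.25 (SE; adjusted p = 0.000145). By the same requirement its groups did not overlap in either background, with 2.29 without and 1.85 with Cyc.

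*THI2.2*, a thionin gene whose relatives encode antimicrobial peptides, had signals of 94, 207 and 119.5 in mock, 294, 388 and 293 in Dex, 39.2, 7.04 and 29 in Cyc and 143, 104 and 183 in Dex+Cyc. Its change was 2.04 ± 0.41 (SE; adjusted p = 0.00463), and its lowest arrays were those with Cyc alone. Within backgrounds it had 1.28 ± 0.52 without Cyc (SE; adjusted p = 0.129), which did not pass, and 2.81 ± 0.52 with Cyc (SE; adjusted p = 0.009). With 32 added before the log the pooled change was 1.37. The call was lost when any 1 of Mock replicate 1, Dex replicate 2, Dex+Cyc replicate 1 or Dex+Cyc replicate 3 was left out, with log2 changes of 1.62 to 2.27 over all single omissions. *DOG1*, a regulator of seed dormancy, had signals of 54.6, 57.5 and 64.5 in mock, 238, 194 and 222 in Dex, 32.4, 53.1 and 50.2 in Cyc and 137, 158 and 164 in Dex+Cyc. It rose by nearly the same log2 amount in both backgrounds (1.89 without and 1.79 with Cyc) with a small error, 1.84 ± 0.12 (SE; adjusted p = 5.11e-06) pooled.

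**Figure D2:**
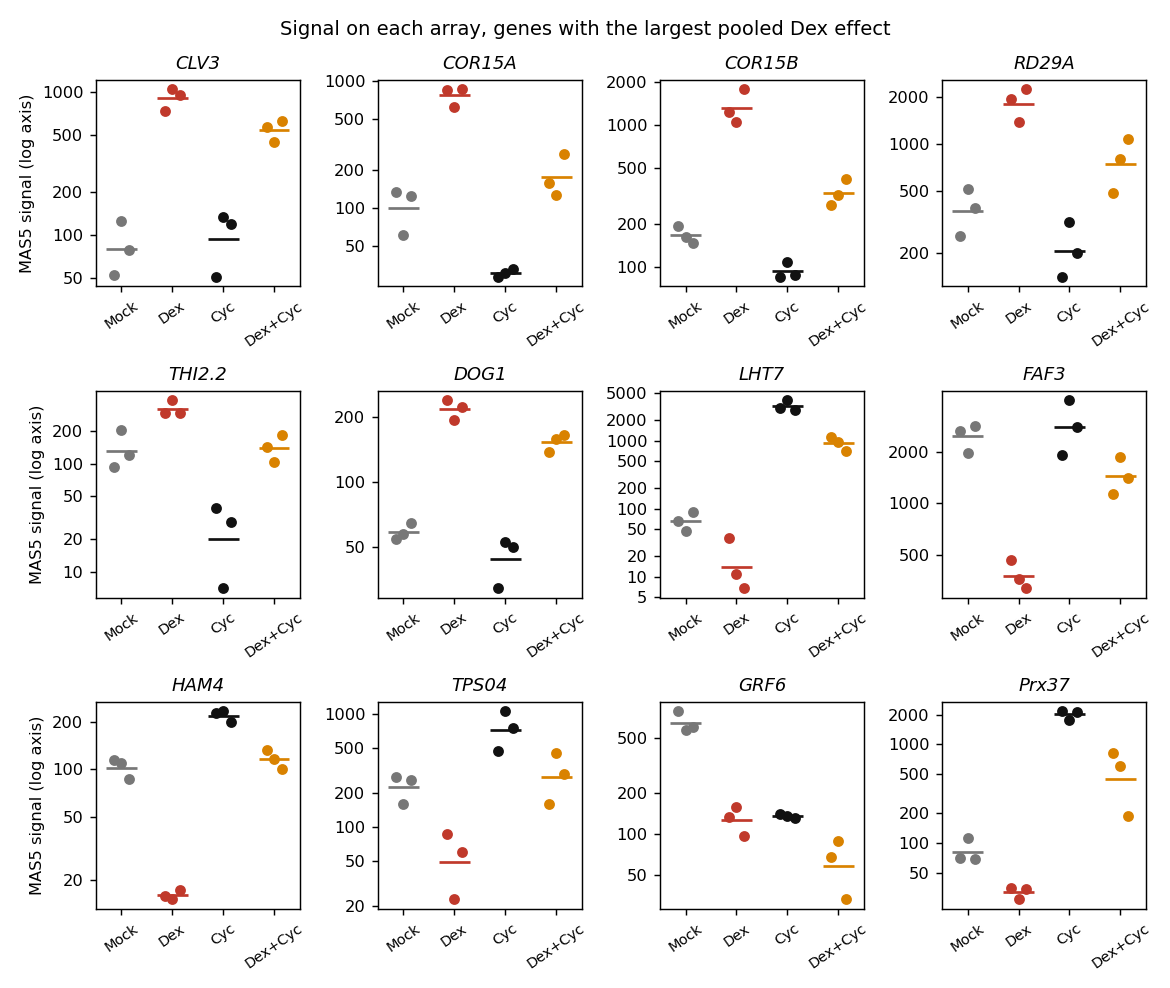
MAS5 signal (log axis) on each of the 12 arrays for the 6 genes with the largest pooled increase and the 6 with the largest pooled decrease among loci with a symbol whose arrays separated in both backgrounds. Points are arrays and bars are geometric means of 3 arrays. The choice of genes required that within each background the Dex points lie on 1 side of the points without Dex.

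The other raised genes of this kind had smaller changes. *PIP2E*, an aquaporin of the plasma membrane, rose by 1.72 ± 0.15 (SE; adjusted p = 2.24e-05). *PGL1*, which encodes a 6-phosphogluconolactonase, had 1.65 ± 0.28 (SE; adjusted p = 0.00156). *GL1*, the MYB factor that starts trichome formation, had 1.65 ± 0.18 (SE; adjusted p = 7.44e-05), with 1.7 without and 1.59 with Cyc. *RD26*, a NAC factor of the abscisic acid response, had 1.63 ± 0.23 (SE; adjusted p = 0.0004). *HFR1*, a bHLH factor of light signalling, had 1.58 ± 0.21 (SE; adjusted p = 0.000249). *SR1*, a protein kinase gene of the family that pairs with calcineurin B-like proteins, had 1.51 ± 0.19 (SE; adjusted p = 0.000181). All 6 were called, and complete separation in both backgrounds was a condition of the choice. None lost its call when any single array was left out.

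The largest decrease was also at a probe set without an annotation here, 260140_at, likewise chosen after its values were seen. Its signals were 289, 104 and 199.9 in mock, 50, 40.6 and 34.1 in Dex, 70.1, 178 and 188 in Cyc and 23, 22.1 and 15.2 in Dex+Cyc, and the change was -2.45 ± 0.29 (SE; adjusted p = 0.000122). The groups separated in both backgrounds. With 32 added before the log the change was -1.63.

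Among lowered loci with a symbol, *LHT7*, of the lysine and histidine transporter family, changed most. *LHT7* signals were 67.5, 48 and 88.8 in mock, 37.9, 10.9 and 6.85 in Dex, 3092, 3954 and 2824 in Cyc and 1144, 979 and 714 in Dex+Cyc. Cyc alone raised the transcript far above mock, and Dex lowered it at both levels, with -2.22 ± 0.49 without Cyc and -1.81 ± 0.49 with Cyc. The pooled change was -2.02 ± 0.34 (SE; adjusted p = 0.00135), whereas neither background passed alone (adjusted p = 0.0103 and 0.0495). *Prx37*, a cell wall peroxidase gene, had a similar layout, with signals of 71.1, 112 and 69 in mock, 34.9, 26.9 and 33.8 in Dex, 2156, 1751 and 2149.5 in Cyc and 813, 598 and 186 in Dex+Cyc. Its change was -1.77 ± 0.31 (SE; adjusted p = 0.00172), again with no call in either background alone. *GSTU12*, a glutathione transferase gene, was also far higher with Cyc, with signals of 37.6, 54.6 and 67.8 in mock, 11.2, 6.27 and 20.9 in Dex, 7439, 10118 and 8128 in Cyc and 4790.2, 4089 and 2511 in Dex+Cyc and a change of -1.7 ± 0.29 (SE; adjusted p = 0.00172). In all 3 genes the signals without Cyc were low, and Dex arrays lay below their controls at both levels, as the choice of the largest changes required. With 32 added before the log, the pooled changes were -1.40, -1.45 and -1.07. Without the filter *Prx37* and *GSTU12* each had an adjusted p of 0.0108 and lost the call.

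*TPS04*, a terpene synthase gene, had signals of 278, 160.0 and 259 in mock, 87.4, 23.1 and 60.8 in Dex, 472, 1051 and 751 in Cyc and 160.2, 453 and 296 in Dex+Cyc. It changed by -1.78 ± 0.35 (SE; adjusted p = 0.00422), and the call was lost when any 1 of Mock replicate 1, Mock replicate 3, Cyc replicate 2 or Dex+Cyc replicate 1 was left out, with log2 changes of -1.49 to -1.98 over all single omissions. *YSL1*, which encodes a transporter of metal chelates, fell by nearly the same amount in both backgrounds, -1.82 without and -1.65 with Cyc, and -1.74 ± 0.1 (SE; adjusted p = 1.37e-06) pooled. *GLIP5*, a GDSL lipase gene, had -1.69 ± 0.15 (SE; adjusted p = 2.52e-05).

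Genes that control the size of the meristem were lower with Dex. The list for this role holds 8 genes, the *HAIRY MERISTEM* (*HAM*) GRAS factors, which maintain the meristem, and the *FAF* genes, which repress *WUS* when overexpressed. Of the 5 tested, 4 were called lower, against 1.40% of all tested loci. The other one, *HAM3*, fell by less than 2-fold (-0.96, adjusted p = 0.00197). Only *HAM4* had a locus known independently of the lists of changed genes, so the count says little beyond the genes themselves. *HAM4* signals were 114, 109 and 86.7 in mock, 15.7, 15 and 17.1 in Dex, 227, 233 and 199 in Cyc and 132, 117 and 100.3 in Dex+Cyc. Its pooled change was -1.81 ± 0.27 (SE; adjusted p = 0.000584), with -2.69 ± 0.14 without Cyc and -0.92 ± 0.14 with Cyc. With 32 added before the log the pooled change was -1.13 and was still called. *FAF3* signals were 2652, 1971 and 2827 in mock, 464, 362 and 319.6 in Dex, 1919, 3991 and 2774 in Cyc and 1133, 1874 and 1403 in Dex+Cyc, and its change was -1.82 ± 0.31 (SE; adjusted p = 0.00146). *FAF2* changed by -1.66 ± 0.3 (SE; adjusted p = 0.0025), a call lost without the filter (adjusted p = 0.014), and *FAF1* by -1.25 ± 0.24 (SE; adjusted p = 0.00362). The 4 called members had larger changes without Cyc, for example -2.7 without and -0.94 with Cyc in *FAF3* and -2.47 without and -0.85 with Cyc in *FAF2*. The test of the difference did not pass for *FAF3*, *FAF2* or *FAF1* (adjusted p = 0.102, 0.16 and 0.198). Nor did the limma contrast of Dex+Cyc versus Cyc pass for any of them (adjusted p = 0.0601, 0.126 and 0.18). The *FAF2* arrays overlapped in that background, so a fall of these genes with Cyc was not established.

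Other genes of stem cell signalling did not pass. *POL*, a phosphatase of the CLV pathway, had -0.05 ± 0.1 (SE; adjusted p = 0.76), *ULT1*, which limits floral stem cells, -0.22 ± 0.14 (SE; adjusted p = 0.297), and *BAM1*, a receptor kinase related to CLV1, -0.51 ± 0.12 (SE; adjusted p = 0.0127). *CLV3* was thus the only called member of the 4 tested from this list, of which *BAM1* was known only from the lists of changed genes. Over all tested loci 0.782% were called higher.

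Organ polarity genes were lower with Dex. Abaxial identity is set by *KANADI* and *YABBY* factors and the auxin response factor *ARF4*, and adaxial identity by class III HD-ZIP factors. Of 19 genes in the list 9 were tested, and all 9 had a negative change. For the 7 with an independently known locus, 2 were called lower and 5 had an adjusted p under 0.01. Over all tested loci 1.40% were called lower, and 4.66% were lower at an adjusted p under 0.01. The median log2 change of the 7 was -0.76, against 0.03 over all tested loci. *KAN1* signals were 251, 194 and 261 in mock, 87.8, 57.9 and 80.2 in Dex, 169, 269.9 and 267 in Cyc and 82.2, 135 and 47.7 in Dex+Cyc. The 6 Dex arrays were all below their controls. *KAN1* changed by -1.58 ± 0.22 (SE; adjusted p = 0.000418) and by nearly the same amount in each background (-1.65 without and -1.51 with Cyc). *KAN2* signals were 969.8, 792 and 840.1 in mock, 319, 316 and 368 in Dex, 835, 1034 and 995 in Cyc and 566, 555 and 477 in Dex+Cyc, a change of -1.11 ± 0.11 (SE; adjusted p = 5.55e-05) with complete separation. *YAB3* signals were 512, 381 and 476 in mock, 296, 171 and 213 in Dex, 299, 276 and 329 in Cyc and 177, 180.2 and 139.9 in Dex+Cyc. Its arrays separated too, and its change of -0.95 ± 0.13 (SE; adjusted p = 0.000399) was 1.94-fold, just under the fold required. *AGO7*, which acts in the small RNA pathway that limits *ARF4*, was called lower (-1.22, adjusted p = 0.00269). *ARF4* (-0.72, adjusted p = 0.000139), *KAN3* (-0.76, adjusted p = 0.00809) and *FIL* (-0.35, adjusted p = 0.00635) passed the p threshold with less than a 2-fold change, and *PHV* (-0.35, adjusted p = 0.0437) and *YAB5* (-0.38, adjusted p = 0.0698) did not.

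The study tested oligonucleotides from regulatory regions of *KAN1*, *KAN2* and *YAB3* in gel shifts with WUS protein. They are shown because these 3 genes had negative changes with separated arrays in both backgrounds, and because each was tested with and without TAAT. The first of each pair is the unchanged probe and the second the version in which every TAAT was replaced, with the numbers in the names as the study gives them. Capitals mark TAAT on either strand (ATTA on the strand shown), and overlapping matches run together.
KAN1-1100: tactgatattTAATgtatatttatctct
M1: tactgatatttggtgtatatttatctct
KAN1 1050: tcttacacTAATactatatttacacatg
M2: tcttacactggtactatatttacacatg
KAN2 1080: ggATTAATcgttcacttattttgttt
M3: ggatgggtcgttcacttattttgttt
KAN2 1650: tgtcagTAATagTAATattgagta
M5: tgtcagtggtagtggggttgagta
YAB3 500: agtTAATTAATgtgtgatATTAATtggc
M12: agttggttggtgtgtgataggggttggc
The *YAB3* probe holds 3 matches on the strand shown and 2 on the other, the 2 *KAN1* probes hold 1 each, and the mutated probes hold 0. How often TAAT occurs upstream of other genes was not analysed here. *AS2*, the fourth gene with such probes, had a mean signal of 70.4 and was below the filter.

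**Figure D3:**
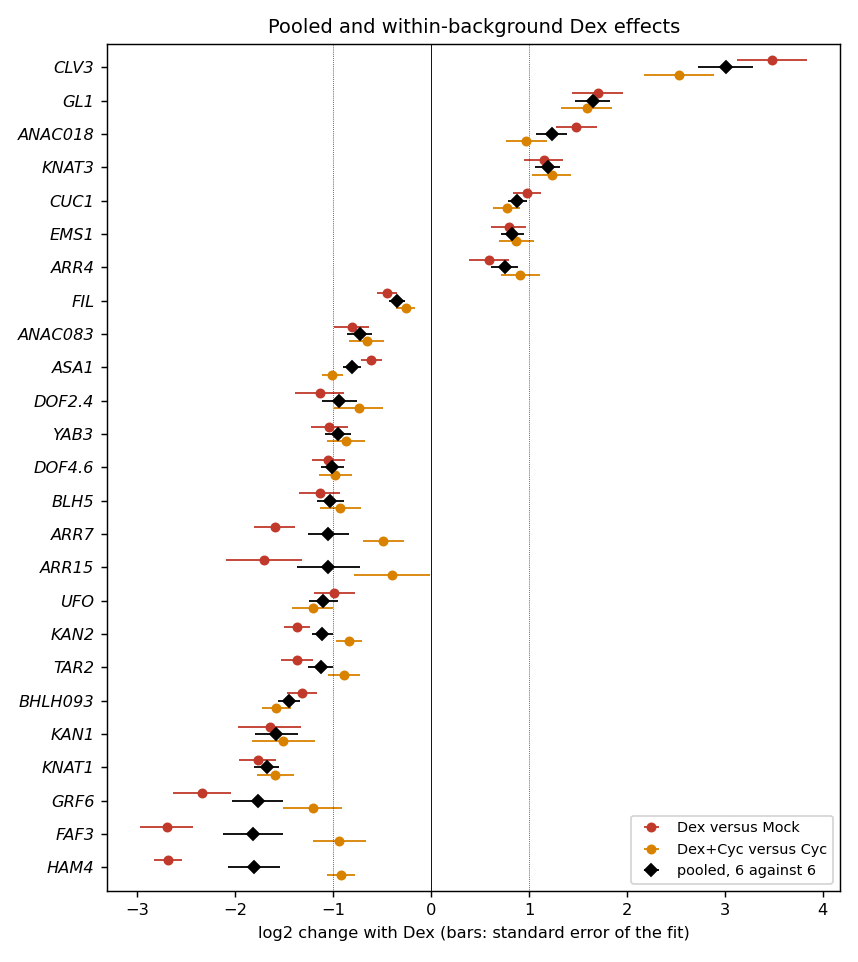
Log2 change with Dex (x axis) for 25 developmental genes, with standard errors of the fit as bars, from the pooled effect (black), Dex versus Mock (red) and Dex+Cyc versus Cyc (orange). Dotted lines mark 2-fold. *KAN1*, *KNAT1*, *BHLH093* and *UFO* lie close together in both backgrounds, while *HAM4*, *FAF3*, *GRF6*, *ARR7* and *ARR15* had the larger change without Cyc. Of the latter genes only *HAM4* passed the test of the difference at an adjusted p under 0.05.

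Homeodomain genes moved in both directions. *KNAT1*, the class I KNOX gene *BREVIPEDICELLUS* that patterns the inflorescence stem, had signals of 3320.1, 2648 and 2612 in mock, 915, 865 and 729 in Dex, 1295, 1520.3 and 1629 in Cyc and 612, 544 and 353 in Dex+Cyc. Every Dex array was below every control, and the change was -1.68 ± 0.13 (SE; adjusted p = 1.2e-05), with -1.77 ± 0.19 without Cyc and -1.59 ± 0.19 with Cyc. *BLH5*, a BELL partner gene of KNOX proteins, was lower (-1.03 ± 0.14 (SE; adjusted p = 0.000378)) but lost its call when any 1 of Mock replicate 1, Dex replicate 3, Cyc replicate 2 or Dex+Cyc replicate 1 was left out (log2 changes of -0.94 to -1.12 over all single omissions). The class II gene *KNAT3* was called higher, 1.19 ± 0.13 (SE; adjusted p = 8.89e-05), and *KNAT4*, of the same class, passed the p threshold downward (-0.51, adjusted p = 0.00525). In the HD-ZIP I and II families 8 of 26 genes were tested, with 1 called higher and 3 lower (0.782% and 1.40% over all tested loci). *HAT9* rose (1.39 ± 0.2 (SE; adjusted p = 0.000576)) while *HB23* (-1.68 ± 0.32 (SE; adjusted p = 0.00317)), *HB13* (-1.3 ± 0.2 (SE; adjusted p = 0.000737)) and *HAT1* (-1.13 ± 0.2 (SE; adjusted p = 0.00184)) fell. *HB23* and *HAT1* lost their calls without the filter on low signal and in a test against a 1.2-fold change. Of the 4 only *HAT1* had an independently known locus, among 4 such members with a median of -0.42.

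Boundary and floral genes gave fewer calls. *CUC1*, a NAC gene of organ boundaries, rose by 1.83-fold (0.88 ± 0.1 (SE; adjusted p = 0.000123)), under the fold required, with all arrays apart. Its signals were 301, 251 and 277 in mock, 519.5, 608 and 508 in Dex, 177, 201 and 190.5 in Cyc and 276, 303 and 402 in Dex+Cyc. *ANAC018*, a NAC gene of the same large family, was called higher at 1.23 ± 0.16 (SE; adjusted p = 0.000231). The boundary genes *LOF1* (-0.97, adjusted p = 0.000324), *BOP2* (-0.92, adjusted p = 0.000144), *RAX1* (-0.76, adjusted p = 0.000989) and *CUC3* (-0.71, adjusted p = 0.00607) passed the p threshold downward, and none reached 2-fold. *LAS* (-0.15, adjusted p = 0.464), the only member of this list with an independently known locus, did not pass. *UFO*, an F-box gene of floral identity, was lower at -1.1 ± 0.15 (SE; adjusted p = 0.000336), a call lost without Dex replicate 3 (-0.98). The other 6 floral identity genes tested did not pass, with log2 changes between -0.50 (*PI*) and 0.22 (*SEP1*).

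Of 4 organ growth genes tested 1 was called lower, and of 5 vasculature genes 1 was, against 1.40% of all tested loci. The organ growth call was *GRF6*, whose locus was known only from the lists of changed genes. Among members with an independently known locus, 0 of 3 organ growth genes and 1 of 3 vasculature genes were called. *GRF6*, a growth-regulating factor of young organs, had signals of 777, 570.0 and 600.3 in mock, 133, 158 and 97.4 in Dex, 140.2, 136 and 130.4 in Cyc and 67.7, 89.3 and 33.6 in Dex+Cyc and a change of -1.77 ± 0.26 (SE; adjusted p = 0.000536). Its mean was 649 in mock and 136 in Cyc, and the Dex arrays lay below their controls at both levels. *BHLH093*, a relative of the stomatal factor *FAMA*, had signals of 2494, 2679 and 2212 in mock, 924, 1058 and 967 in Dex, 1286, 962 and 998 in Cyc and 317, 442 and 329 in Dex+Cyc. It fell by a little more with Cyc than without (-1.32 without and -1.58 with Cyc), -1.45 ± 0.11 (SE; adjusted p = 1.12e-05) pooled. The test of the difference did not pass (adjusted p = 0.742). *DOF4.6*, a vascular DOF factor, was just past the fold at -1.01 ± 0.12 (SE; adjusted p = 0.000122), and the call was lost when any 1 of Mock replicate 3, Dex replicate 1, Dex replicate 3, Cyc replicate 2 or Dex+Cyc replicate 3 was left out (-0.95 to -1.09 over all single omissions). *DOF2.4* (-0.94, adjusted p = 0.00313), *ANAC083* (-0.73, adjusted p = 0.00159) and the receptor gene *TDR* (-0.93, adjusted p = 0.00129) passed the p threshold only. *GIF1*, the transcriptional partner of growth-regulating factors, had -0.43, adjusted p = 0.00378, while *LHW* (-0.07, adjusted p = 0.624), *TCP24* (-0.17, adjusted p = 0.577) and *ARL* (-0.54, adjusted p = 0.0392) of these lists did not pass. *EMS1*, a receptor kinase gene of anther development, passed upward at 1.77-fold (0.83 ± 0.12 (SE; adjusted p = 0.000572)), with 0.79 without and 0.87 with Cyc.

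**Figure D4:**
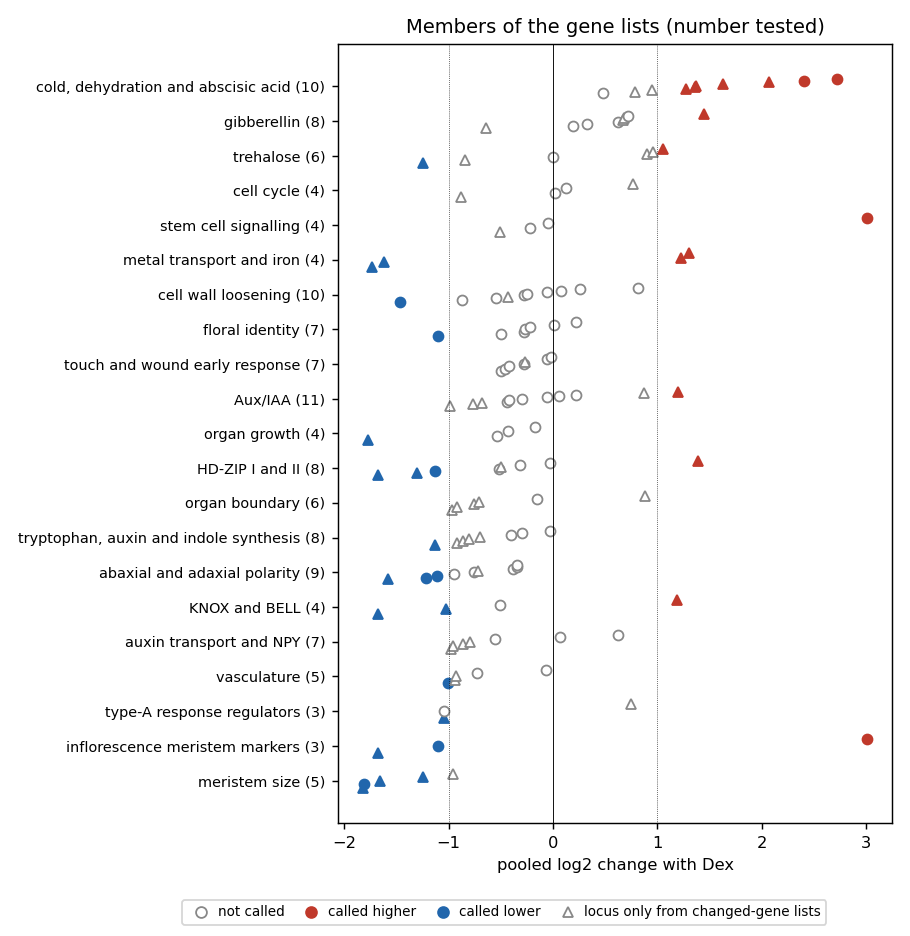
Pooled log2 change with Dex (x axis) of each tested member of the 21 gene lists with at least 3 tested members, with the number tested in parentheses. Filled symbols were called (red higher, blue lower) and triangles are members whose locus came only from the lists of changed genes; 7 of 10 cold and abscisic acid genes were called higher, and all 9 polarity genes lie below 0.

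The list of cold and abscisic acid genes held the most members called higher of the 26 lists. Of 24 genes 10 were tested, all 10 had a positive change, and 7 were called, against 0.782% of all tested loci called higher. The locus of 7 of the 10 came only from the lists of changed genes. Of the 3 with an independently known locus, *COR15A* and *COR15B* were called and *COR47* (0.48, adjusted p = 0.0625) was not. Besides the effector genes above, transcription factors of the pathway rose. *ABF3*, a bZIP factor that binds abscisic acid response elements, had signals of 350.3, 418 and 365 in mock, 1399, 947 and 1291 in Dex, 169, 126 and 164 in Cyc and 348, 300.0 and 317 in Dex+Cyc and a change of 1.37 ± 0.14 (SE; adjusted p = 4.82e-05). *DREB2A* (1.36, adjusted p = 0.00102) and *CBF3* (1.27, adjusted p = 0.000181), which bind dehydration response elements, were also called. *NCED3*, the gene of a rate-limiting step of abscisic acid synthesis, and *ABF4* passed the p threshold at 0.95, adjusted p = 0.00551 and 0.78, adjusted p = 0.00126. The 9 members with an adjusted p under 0.01 all had the larger change without Cyc, but the test of the difference passed for none of them (smallest adjusted p = 0.136, for *DREB2A*).

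Auxin genes moved in both directions and mostly by less than 2-fold. *TAR2*, an aminotransferase gene of auxin synthesis, was called lower at -1.13 ± 0.13 (SE; adjusted p = 8.43e-05), with signals of 639.6, 594 and 709 in mock, 237, 244 and 269 in Dex, 264, 329 and 345 in Cyc and 206, 167 and 138 in Dex+Cyc. *ASA1*, the gene of the first committed step of tryptophan synthesis, fell by 1.75-fold (-0.81 ± 0.09 (SE; adjusted p = 9.79e-05)) and more with Cyc than without (-0.61 without and -1.01 with Cyc). This difference between backgrounds did not pass its test (adjusted p = 0.372). *TSA1* (-0.7, adjusted p = 0.0115) and *IGPS* (-0.4, adjusted p = 0.0115), of later steps, did not pass. Of 11 Aux/IAA genes tested, which encode repressors of auxin response, *IAA27* was called higher at 1.2 ± 0.11 (SE; adjusted p = 2.96e-05) and *IAA3* passed the p threshold upward (0.87, adjusted p = 0.000147), whereas *IAA4* (-0.99, adjusted p = 9.33e-05), *IAA17* (-0.77, adjusted p = 0.00381) and *IAA16* (-0.68, adjusted p = 0.000601) passed it downward. *IAA3* averaged 34.6 in mock and 66.4 in Dex, and it passed the filter through the arrays with Cyc (652 in Cyc and 1120.1 in Dex+Cyc). The 6 Aux/IAA genes with an independently known locus gave no call. *ABCB1*, an auxin transporter gene (-0.98, adjusted p = 0.000106), the *NPY* genes *NPY3* (-0.86, adjusted p = 7.61e-05) and *NPY5* (-0.8, adjusted p = 0.000815), and *GH3.6*, which conjugates auxin (-0.96, adjusted p = 0.00388), were lower by the p threshold, and *GH3.5* was higher (0.62, adjusted p = 0.00888).

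Cytokinin response regulators, which dampen cytokinin signalling, did not all move one way. *ARR7* signals were 1804, 1547 and 1933 in mock, 424, 761 and 595 in Dex, 5368, 7566 and 6415 in Cyc and 5224, 4826 and 3762 in Dex+Cyc. Cyc raised it, and the arrays with Dex were below those without in both backgrounds. The pooled change of -1.05 ± 0.21 (SE; adjusted p = 0.00479) was called, with -1.6 ± 0.21 without Cyc and -0.49 ± 0.21 with Cyc, and the call was lost when any 1 of 7 arrays was left out: each mock array, Dex replicates 1 and 3, Cyc replicate 2 and Dex+Cyc replicate 3 (-0.88 to -1.16 over all single omissions). *ARR15* had nearly the same pooled change but a larger error, -1.05 ± 0.32 (SE; adjusted p = 0.0394), and did not pass. *ARR4* was higher by the p threshold, 0.75 ± 0.14 (SE; adjusted p = 0.00325), with the larger change in the Cyc background (0.59 without and 0.91 with Cyc). For *ARR4* the test of the difference did not pass (adjusted p = 0.75).

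Transport and metabolic genes held several called members, beside 0.782% of all tested loci called higher and 1.40% called lower. The loci of *ZIFL1*, *FER1*, *BOR1*, *TPS6*, *TPPD* and *GASA1* were known only from the lists of changed genes. Their calls therefore say little about these groups of genes. *ZIFL1*, a transporter gene of the major facilitator family, was lower at -1.62 ± 0.11 (SE; adjusted p = 7.26e-06) with -1.65 without and -1.6 with Cyc. *FER1*, encoding the iron store ferritin, was higher at 1.23 ± 0.14 (SE; adjusted p = 9.72e-05). *BOR1*, a boron transporter gene, was called higher at 1.3 ± 0.26 (SE; adjusted p = 0.004) with the larger change under Cyc (0.61 without and 1.98 with Cyc), and lost its call without Cyc replicate 3 or Dex+Cyc replicate 2 (1.12 to 1.42 over all single omissions). Its test of the difference did not pass (adjusted p = 0.15). In the trehalose pathway *TPS6* was called higher (1.05 ± 0.16 (SE; adjusted p = 0.000863)) and the phosphatase gene *TPPD* lower (-1.25 ± 0.28 (SE; adjusted p = 0.00816)). Neither passed in the Cyc background alone. *TPS6* had 1.4 without and 0.71 with Cyc (adjusted p = 0.0538 with Cyc). *TPPD* had -2.03 without and -0.48 with Cyc (adjusted p = 0.345 with Cyc), and its arrays overlapped with Cyc. *TPS6* lost its call without Mock replicate 1, Mock replicate 2 or Dex replicate 1 (0.97 to 1.17), and *TPPD* when any 1 of 9 arrays was left out, all but Cyc replicate 1 and Dex+Cyc replicates 1 and 2 (-1.05 to -1.42). *TPS1*, the gene of the catalytically active synthase, was lower by the p threshold (-0.84, adjusted p = 0.00217), and *TPS5* stood at 0.0, adjusted p = 0.997. *GASA1*, a gibberellin-regulated gene, was higher by 1.45 ± 0.13 (SE; adjusted p = 2.69e-05) in nearly equal measure (1.45 without and 1.44 with Cyc), while the receptor genes *GID1A* (0.32, adjusted p = 0.0157) and *GID1C* (0.72, adjusted p = 0.0157) did not pass. Of 10 cell wall genes *XTH32*, a xyloglucan transferase gene, was called lower (-1.47 ± 0.18 (SE; adjusted p = 0.000174)) and *XTH27* passed the p threshold upward (0.81, adjusted p = 0.00927).

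The 7 touch and wound genes, which Cyc raised strongly, had pooled changes between -0.50 and -0.02, and none passed. Among cell cycle genes the inhibitor gene *KRP3* was lower by the p threshold (-0.88, adjusted p = 7.89e-05) and *KRP7* higher (0.77, adjusted p = 0.00661), while *CYCA1;1* (0.02, adjusted p = 0.911) and the replication gene *MCM7* (0.12, adjusted p = 0.606) did not pass. Over all 26 lists, 133 of 429 genes were tested, and 70 of these had an independently known locus. Of the 70, 3 were called higher and 7 lower, against 0.782% and 1.40% over all tested loci, for genes that were put on the lists with earlier results of these data known. The light-harvesting gene *LHCB4.2*, a marker of green tissue, rose by 0.86 ± 0.15 (SE; adjusted p = 0.00151) and *LHCB4.1* stood at 0.35, adjusted p = 0.0471. The part of tissue make-up in the results above was not tested.

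Some loci were called only through pooling. Of the 48 loci called in the pooled effect and in neither background alone, the raised ones with a symbol were *ACR1*, an ACT-domain protein gene (1.04 ± 0.17 (SE; adjusted p = 0.00111)), and *EDA12* (1.26 ± 0.24 (SE; adjusted p = 0.00336)). *EDA12* lost its call with 32 added before the log (0.92), without the filter and in the test against 1.2-fold, and its arrays overlapped with Cyc. *ACR1* signals were 145, 137 and 153 in mock, 299, 237 and 271 in Dex, 49.8, 78 and 78.7 in Cyc and 179.7, 102 and 198 in Dex+Cyc. Its arrays separated in both backgrounds, with adjusted p = 0.0285 without Cyc and 0.0132 with Cyc, and the call was lost without Cyc replicate 1, Dex+Cyc replicate 1 or Dex+Cyc replicate 3 (0.92 to 1.15 over all single omissions). The lowered ones with the smallest adjusted p, besides *LHT7* and *Prx37*, were *RBK1*, a protein kinase gene (-1.19 ± 0.19 (SE; adjusted p = 0.0011)), *IAGLU*, which encodes an auxin glucosyltransferase (-1.35 ± 0.22 (SE; adjusted p = 0.00121)), and *THA1*, a threonine aldolase gene (-1.04 ± 0.2 (SE; adjusted p = 0.00286)). *IAGLU* signals were 107, 101 and 151 in mock, 71.3, 53.8 and 44 in Dex, 215, 274 and 277 in Cyc and 88.2, 133 and 49.9 in Dex+Cyc, separated in both backgrounds. *RBK1* lost its call with 32 added (-0.85), as did *ACR1* (0.83). *THA1* lost its call with 32 added, without the filter, in the test against 1.2-fold and when any 1 of Mock replicate 2, Mock replicate 3, Dex replicate 3 or Dex+Cyc replicate 1 was left out (-0.89 to -1.15).

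Few loci passed the test of a difference in Dex effect between backgrounds. The difference has a larger standard error than the pooled effect (0.51 against 0.28 for *CLV3*), so loci that did not pass can still differ. The test of the difference gave an adjusted p under 0.05 at 39 loci (0.277%), and 6 passed at an adjusted p under 0.01 with at least a 2-fold difference. An unadjusted p under 0.05 occurred at 10.6% of tested loci and at 27.7% of the 307 called loci. Among called loci, 4 raised and 3 lowered had an adjusted p under 0.05. *HAM4* fell in both backgrounds and by more without Cyc, with a difference of 1.77 ± 0.19 (SE; adjusted p = 0.00426). *LBD37*, a LOB-domain gene of nitrogen response, was called higher pooled (1.17 ± 0.25 (SE; adjusted p = 0.00581)) but its effect lay almost wholly in the background without Cyc, 1.98 ± 0.14 without Cyc and 0.36 ± 0.14 with Cyc, a difference of -1.62 ± 0.2 (SE; adjusted p = 0.00742). Its signals were 194, 255 and 268 in mock, 915, 891 and 1007 in Dex, 1527, 1230.2 and 1478 in Cyc and 1937, 1814 and 1677 in Dex+Cyc. The pooled call was lost when any 1 of 7 arrays was left out: each mock and Dex array and Cyc replicate 2 (1.02 to 1.29 over all single omissions). *NIA2*, encoding nitrate reductase, had opposite signs, 1.68 ± 0.18 without Cyc and -0.61 ± 0.18 with Cyc, and no pooled call (0.54, adjusted p = 0.316). *LCR67*, a defensin-like gene, had 0.11 ± 0.16 without Cyc and -1.55 ± 0.16 with Cyc, and *PAD3*, of camalexin synthesis, had 0.39 ± 0.29 without Cyc and -2.22 ± 0.29 with Cyc. Mean signals in mock were low, 45.5 for *NIA2*, 80.7 for *LCR67* and 20 for *PAD3*, and these genes passed the filter through the arrays with Cyc. At the level of *PAD3* a fall without Cyc could hardly be measured. *IP5PII*, an inositol phosphatase gene, had 1.57 ± 0.17 without Cyc and -0.06 ± 0.17 with Cyc. For these 4 genes the pooled value averages effects of unlike size or sign.

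The estimates of the Cyc and Dex terms are uncorrelated in this balanced design, but both tests use the same estimate of the spread. Some lowered loci also passed the filter through their arrays with Cyc, such as *LHT7* (mean 68.1 in mock, 18.5 in Dex and 3290.0 in Cyc). The shares below are therefore a description. Over all tested loci 44.1% were lower with Cyc and 21.8% higher at an adjusted p under 0.01. Among the 110 raised loci, 55 (50%) were lower with Cyc and 22 (20%) higher. Among the 197 lowered loci, 78 (39.6%) were lower and 80 (40.6%) higher. The median log2 change with Cyc was -0.56 in the raised and -0.16 in the lowered loci, against -0.26 over all tested loci. Genes lowered by Dex at which Cyc had the opposite effect included *LHT7* (Cyc effect 5.83), *Prx37* (4.22) and *GSTU12* (7.84), and raised genes included *SR1* (2.27), which both agents raised. *SR1* signals were 172, 225 and 232 in mock, 971, 864 and 845 in Dex, 1416, 1457 and 1652 in Cyc and 2632, 3019.7 and 2909.6 in Dex+Cyc.

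**Figure D5:**
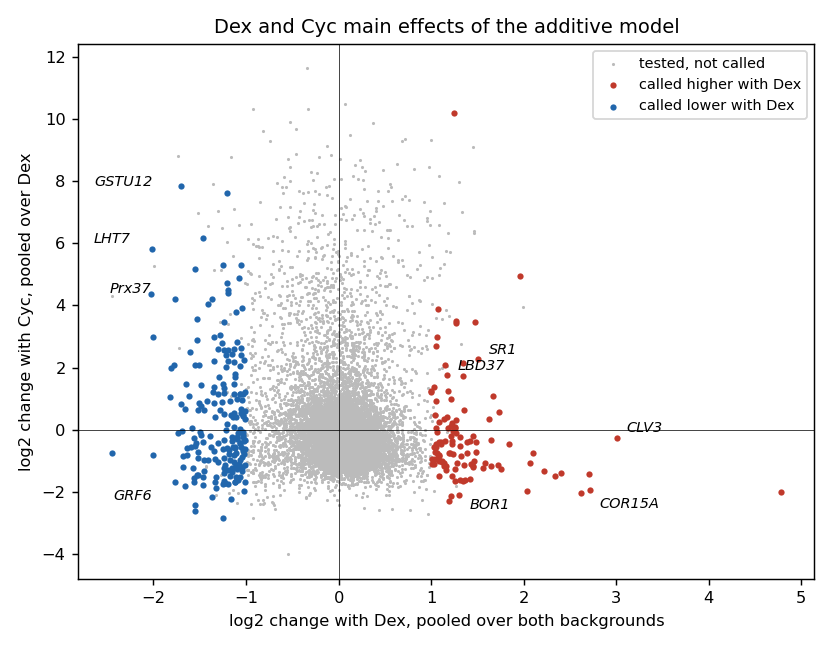
Log2 change with Dex pooled over both backgrounds (x axis) against log2 change with Cyc pooled over Dex (y axis) for the 14067 tested loci, from the additive model. Of the loci lowered by Dex (blue), 80 of 197 were higher with Cyc at an adjusted p under 0.01, and of those raised (red), 22 of 110 were.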

How the data were processed

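The deposited values are the authors' MAS5 signal intensities per probe set, not log-transformed, scaled by array to a 2%-trimmed mean of 500. MAS5 and affy are the tools in the submitters' processing notes; which versions is not given in the sources used here. Detection calls were not used. GCRMA values, on which the study's methods ran their test, were not analysed here.

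After removal of 64 controls from 22810 probe sets, 13513 had 1 gene in the platform table, 503 had several and 8730 were unlisted. With supplementary tables, of which only the annotation was used, 14540 had a locus, 421 of these only through lists of changed genes, and 1816 tested loci had a symbol. The probe set with the highest mean was kept per locus. Tested loci had a mean of 100 or more. Of them, 481 were on probe sets marked as shared between genes and are uncertain.

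Log2 signals were fitted in limma with Dex and Cyc as additive factors (9 residual and 3.65 prior degrees of freedom), and with 4 group means for each background and their difference. P-values were adjusted by Benjamini-Hochberg over 14067 loci. Calls required an adjusted p under 0.01 and 2-fold, the thresholds of the study's methods. The number of arrays limits precision. The fits were checked on simulated data.

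The members and gene lists were chosen with earlier results of these data known. Named genes are those the study names for these arrays, in each direction the 12 most changed loci that have a symbol and whose arrays were apart in both backgrounds, up to 4 members per list by smallest adjusted p, 5 per direction called only when pooled, and 5 with the smallest adjusted p for the difference. A gene that this rule takes is not reported here. Other list members are named to complete a list. *WUS* and *SCR* had no matched probe set.

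The alternatives changed the scaling (quantile, median centring), the transformation (log2(value + 32)), the filter (none, or a minimum of 200) or the probe sets (all of them). Others changed the model (replicate number as a block, averaged group means, array weights, robust shrinkage with a trend), the threshold (adjusted p under 0.05, or a test against 1.2-fold) or omitted 1 array. R 4.3.3, limma 3.58.1, Python 3.11.15, pandas 2.3.3, numpy 2.4.6 and matplotlib 3.10.9 were used.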

Additional observations from a re-analysis of the deposited data

Results flagged for a closer look

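Genes named here whose Dex effect differed between the backgrounds with an adjusted p under 0.05 were 10, by the limma test of the difference itself (log2 change with Cyc minus log2 change without Cyc). The difference was 1.77 ± 0.19 (SE; adjusted p = 0.00426) for *HAM4*, 1.47 ± 0.23 (SE; adjusted p = 0.0294) for *TCH2*, -2.29 ± 0.25 (SE; adjusted p = 0.00426) for *NIA2*, -2.61 ± 0.41 (SE; adjusted p = 0.0294) for *PAD3* and -1.65 ± 0.22 (SE; adjusted p = 0.0169) for *LCR67*. It was -1.63 ± 0.24 (SE; adjusted p = 0.0276) for *IP5PII*, -1.62 ± 0.2 (SE; adjusted p = 0.00742) for *LBD37*, -1.18 ± 0.18 (SE; adjusted p = 0.0294) for *SR1*, -1.05 ± 0.18 (SE; adjusted p = 0.0416) for *GA2ox4* and -0.85 ± 0.15 (SE; adjusted p = 0.0474) for *FER1*. *TCH2*, a calmodulin-like gene that Cyc raised, had -1.0 without and 0.47 with Cyc, and *GA2ox4*, of gibberellin breakdown, 1.21 without and 0.15 with Cyc. Of the 10, *HAM4*, *LBD37*, *SR1* and *FER1* were called in the pooled effect with the same sign in both backgrounds and a smaller change with Cyc. Groups of 3 arrays were too small for a test of single outlying arrays.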

How the results depend on the processing

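The counts of loci raised and lowered stayed within 1.5 times 110 and 197 under all alternatives. They were lowest for raised loci with log2(value + 32) (82) and for lowered loci with the same setting (132), where 207 of the 307 loci were shared, and highest with an adjusted p under 0.05 (133 and 213). Leaving out 1 array gave 88 to 117 raised and 163 to 213 lowered loci. No scaling moved the median Dex effect of all loci by more than 0.03.

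The 6 loci that differed between backgrounds became 10 with log2(value + 32), 2 without a filter, 14 with robust shrinkage and a trend, 39 with weighted arrays, 31 at an adjusted p under 0.05 and 1 in the test against 1.2-fold, and 1 to 8 when single arrays were left out. It was 2 or fewer without Dex replicate 2, any Cyc array or any Dex+Cyc array; the cause was not tested. At an unadjusted p under 0.05 there were 1496.

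The arrays share only replicate numbers. Deviations of same-numbered arrays correlated at -0.07 to 0.28, over 0.1 in 3 of 18 pairs, and 7 of 12 arrays matched best with their own number. With the replicate number as a block, 104 loci were raised, 185 lowered and 4 differed between backgrounds. *LBD37* and *TPPD* lost their call.

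Of 55 called genes that the naming rule takes, 35 kept the call under every alternative that gave them a value, 8 of them having none at the minimum of 200. With log2(value + 32), *ACR1*, *RBK1*, *DOF4.6*, *BLH5*, *EDA12*, *THA1* and *UFO* lost the call through the fold. Without a filter, *HAT1*, *LBD37*, *THI2.2*, *Prx37*, *PGL1*, *TPPD*, *ARR7*, *GSTU12*, *BOR1*, *HB23*, *EDA12*, *FAF2*, *THA1* and *TPS04* lost it, and all of these but *Prx37*, *PGL1* and *GSTU12* also lost it in the test against 1.2-fold. Only *CYCA1;1*, never called, changed sign: -0.02 without Mock replicate 2, -0.04 without Cyc replicate 2 and -0.01 without Dex+Cyc replicate 1, in a range of -0.04 to 0.11 over single omissions. A planned share of promoters with TAAT was not run. Brightness limits precision: the median pooled standard error was 0.145 in the dimmest and 0.095 in the brightest of 5 bins of loci.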
